A study of Apis mellifera with 6 samples.

Results

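Among the gene models of the honeybee hypopharyngeal gland, 64 were lower in both libraries of pollen-fed glands from colonies with caged queens than in every library of the other conditions. They were chosen by their measured values. Counted fragments were divided by a size factor per library, and a model was kept when its lowest scaled count in the 4 Brood and Honey libraries was at least 1.4 times its highest in the 2 Pollen libraries. Models also needed a numbered ID, under 10000 fragments in every library and a largest group mean of 30 scaled fragments or more. Of the 10704 models listed, 5018 met those last conditions, and the 64 were 1.28% of them. The low Pollen values are therefore how the models were found, and they are described without a test.

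The study measured RNA of hypopharyngeal glands of worker honeybees (Apis mellifera) from 6 colonies, with 2 colonies and 2 libraries per group. The Brood group had honey with abundant rape pollen and a queen free to lay. The Pollen group had the same food and a caged queen, so that its brood dwindled. The Honey group had honey as its only food and a caged queen. The sample labels put the bees at 13 and 14 days of age in Brood, 9 and 10 in Pollen and 11 and 12 in Honey, although the series text states 9 days throughout. If the sample labels hold, the Pollen bees were the youngest, and a low value in Pollen cannot be told apart from a low value at the youngest age. The labels do not say how many bees were pooled in a library, and no strain is named.

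The hypopharyngeal gland is a paired gland in the worker's head. In nurse bees it makes the protein-rich part of the jelly fed to larvae and to the queen, its growth depends on the protein that young workers obtain from pollen, and contact with brood helps to keep it active. In older workers that forage, the gland shrinks and turns to enzymes used on nectar. The models are known here by ID alone. None of the listed IDs (0 matches) could be paired with the 12398 genes of the reference table, so no gene name, function or marker of the gland is given, and the labelled tissue was not checked against markers.

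Library totals ran from 2764870 to 4153354 fragments. The size factors were 0.692 and 0.749 in Brood, 0.953 and 1.00 in Pollen, and 2.02 (Honey 1) and 1.10 (Honey 2). Both Honey factors were above all others, although Honey 2 had the smallest total. Honey 1 and Pollen 1 had similar totals, 4120794 and 4153354 fragments, but factors of 2.02 and 0.953. Relative to library totals, the scaling thus lowers both Honey libraries. The same fragment number stands for a lower scaled count in Honey than in the other groups, most of all in Honey 1. A listed 0 allows up to 3 fragments, which is 1.48 to 4.34 scaled fragments depending on the library. In bulk tissue, fewer cells of a type and less RNA per cell cannot be told apart.

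As a group, the 64 models took a small part of the RNA. They held 0.243% and 0.235% of all fragments in the Brood libraries, 0.0799% and 0.0844% in the Pollen libraries, and 0.359% and 0.317% in the Honey libraries. Both Pollen libraries had the smallest shares, and on this scale the Honey libraries had the largest. Summed scaled counts gave 12136 and 11042 in Brood, 3481 and 2986 in Pollen and 7322 and 7987 in Honey. On the scaled counts the Brood libraries were thus the highest, and the order of Brood and Honey depends on the scaling, while Pollen is lowest on both.

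The median of the 64 group means was 68.8 scaled fragments in Brood, 24.2 in Pollen and 52.1 in Honey. Over the 5018 models that met the level and ID conditions it was 63.1 in Brood, 71.8 in Pollen and 75.4 in Honey. Leaving out gene3652, which had no fragment in Pollen, the median model was 2.84-fold higher in Brood than in Pollen (range 1.62 to 37.3), and 2.02-fold lower in Pollen than in Honey (range 1.49 to 5.58). Of these 63 models, 53 differed at least 2-fold between Brood and Pollen, 32 did so between Pollen and Honey, and 28 did so on both sides. A difference of 5-fold or more was found for 9 models between Brood and Pollen and for 1 between Pollen and Honey.

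**Figure D1:**
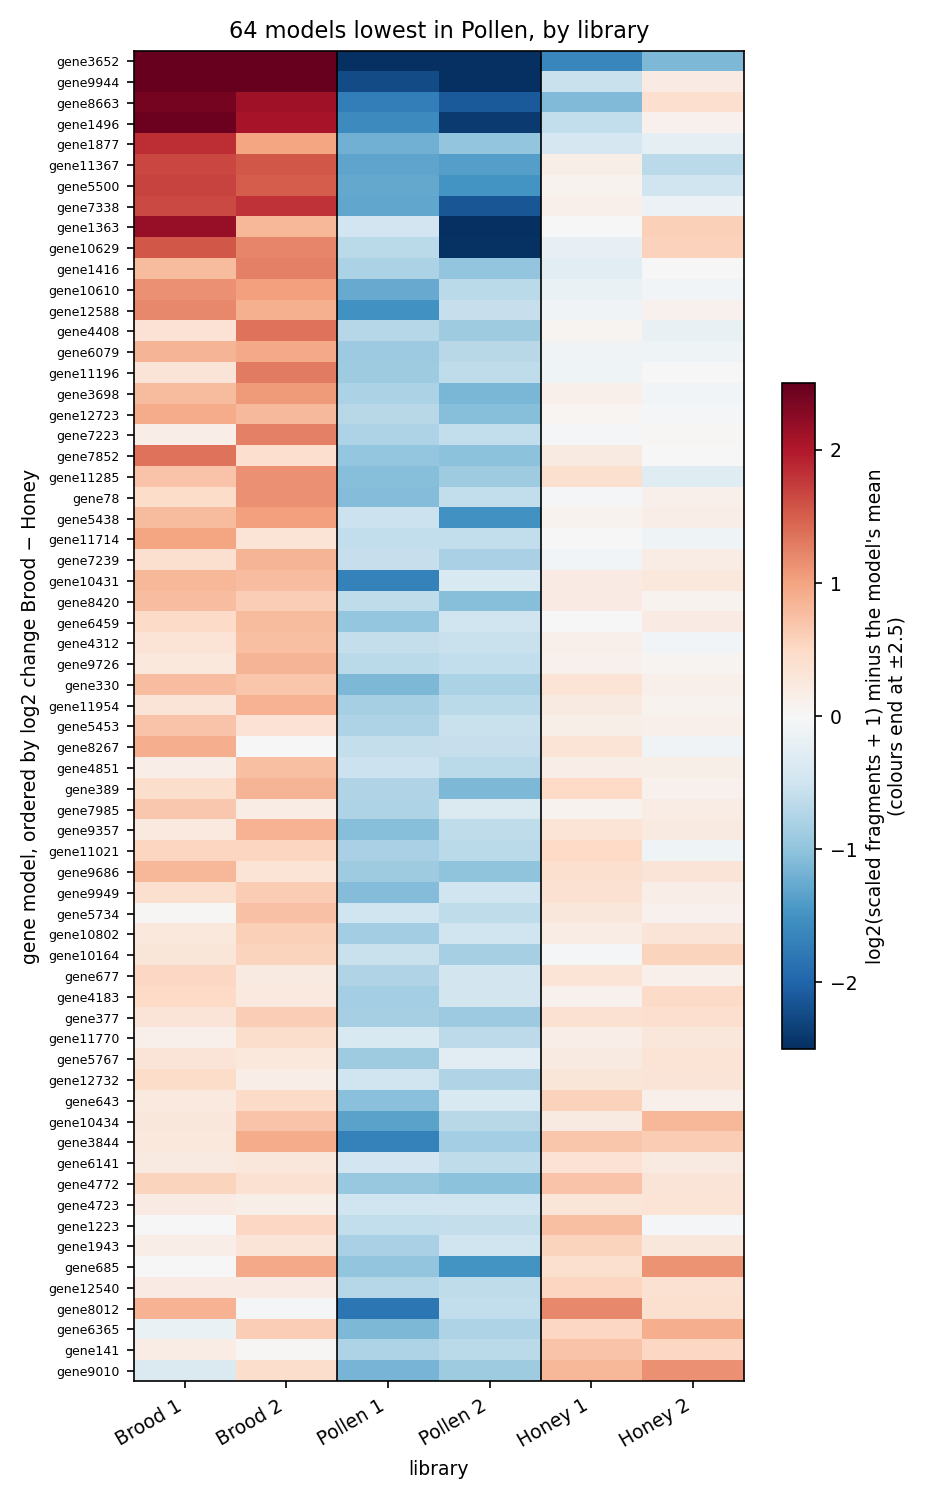
Each row is 1 of the 64 models and each column 1 library, with colour for log2(scaled fragments + 1) minus the model's mean over the 6 libraries; rows run from the largest to the smallest log2 change of Brood minus Honey. The Pollen columns are the lowest in every row, as the rule requires, and the rows at the top have Brood far above Honey while rows in the lower part have them at similar levels, and in the last rows, such as gene9010 and gene141, Honey is above Brood.

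The ratio of the lowest Brood or Honey library to the highest Pollen library had a median of 1.58 among the members; it was under 1.5 for 23 models and 2 or more for 9, including gene3652. The 3 models nearest above the limit were gene7985 at 1.4003, gene5767 at 1.402 and gene1363 at 1.403. The 3 nearest below it were gene11415 at 1.3998, gene10726 at 1.398 and gene11738 at 1.393, which are not members. The edge of the list therefore separates models with almost the same values.

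The models with the largest ratios showed 2 shapes. In the first, Brood and Honey were about level. The model gene4772, on linkage group 5 at 14104081 to 14111590, had 67.9 and 60.1 scaled fragments in Brood, 23.1 and 22.0 in Pollen, and 75.2 and 57.3 in Honey. The model gene377, on linkage group 1 at 6067804 to 6071017, had 43.4 and 53.4 in Brood, 18.9 and 18.0 in Pollen, and 45.5 and 46.4 in Honey. For both, the Brood libraries overlapped or bracketed the Honey libraries, and the Pollen libraries lay within 2 scaled fragments of each other. The more abundant gene9686, on linkage group 12 at 7138355 to 7140758, had the same shape, with 1140 and 810.6 scaled fragments in Brood, 347 and 318 in Pollen, and 844 and 802 in Honey. Its raw counts, 789 and 607 in Brood, 331 and 319 in Pollen, and 1706 and 881 in Honey, make it one of the better counted members.

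In the second shape, Brood was far above Honey and Honey was above Pollen. The model gene9944, on linkage group 13 at 632315 to 633846, had 178 and 167 scaled fragments in Brood, 5.25 and 3.99 in Pollen, and 18.8 and 32.8 in Honey. The Pollen values rest on 5 and 4 raw fragments. The model gene7338, on linkage group 9 at 6107327 to 6108967, had 275 and 304 scaled fragments in Brood, 34.6 and 19.0 in Pollen, and 94.0 and 78.3 in Honey. It overlaps 2 models on the opposite strand, and since no source used here states a strand setting, their fragments may not be separable. For both models the values of the 3 groups did not overlap.

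The model gene3652, on linkage group 4 at 8610087 to 8615841, met the rule only because any count is above 0. It had 121 and 41 raw fragments in Brood, 0 and 0 in Pollen, and 2 and 2 in Honey. Pollen and Honey were both under the limit of 3 fragments, so a difference between them was not detectable at this depth, and no fold is given for that side. Taking 3 fragments per library as the floor, it was at least 37.4-fold higher in Brood than in Pollen. The Brood libraries were themselves far apart, with Brood 1 well above Brood 2.

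**Figure D2:**
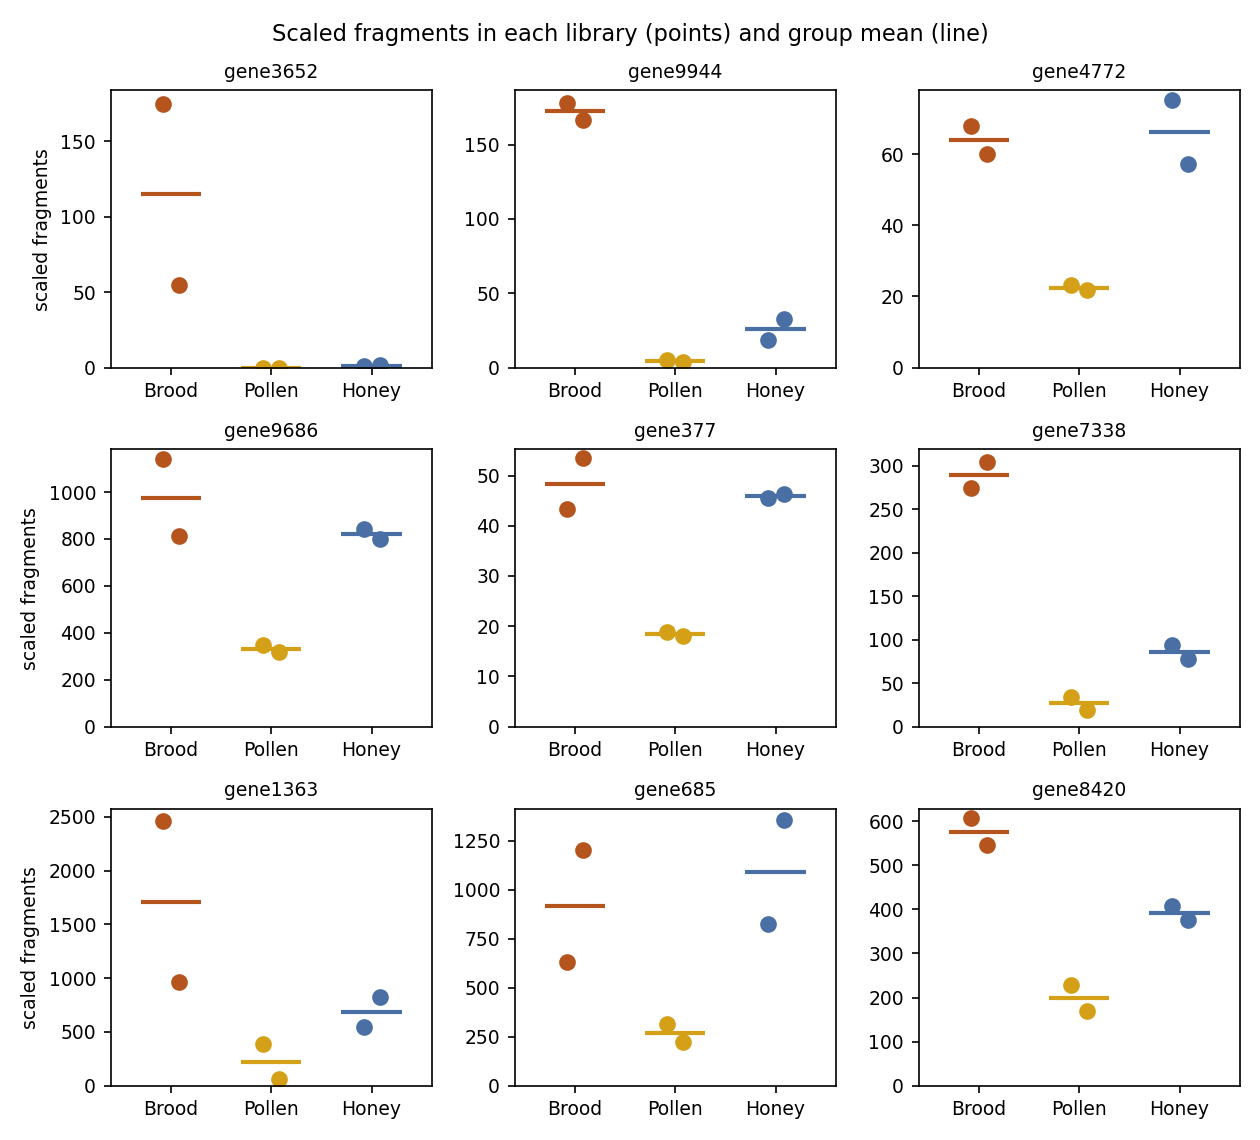
Scaled fragments of the 6 models with the largest ratios and of the most abundant members, with a point for each library and a line for the group mean (n = 2 libraries per group; linear axes from 0, with a scale of its own in each panel). The models gene4772, gene377, gene9686 and gene685 have Brood and Honey at similar levels, whereas gene9944, gene7338 and gene3652 have Brood well above Honey, and gene1363 has widely spread libraries.

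The members ranged widely in abundance, and most were modest. The largest group mean was under 100 scaled fragments for 39 models (60.9%, against 47.5% of the 5018) and 500 or more for 7 models (10.9%, against 15.8%). The most abundant by mean count was gene1363, on linkage group 1 at 22651531 to 22656801. It had 2458 and 967 scaled fragments in Brood, 386 and 59.9 in Pollen, and 542 and 821 in Honey, so libraries of a group differed up to several-fold and its ratio of 1.403 rests on Pollen 1 and Honey 1. The model gene685, on linkage group 1 at 10897835 to 10905458, had 632 and 1200 scaled fragments in Brood, 313 and 222 in Pollen, and 823 and 1357 in Honey. The model gene8420, on linkage group 10 at 12378016 to 12380764, had 607 and 546 in Brood, 228 and 170 in Pollen, and 408 and 377 in Honey. For gene685 the Brood and Honey libraries overlapped, whereas for gene8420 all 3 groups were separate.

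Levels of different models are compared per length, in the deposited FPKM (fragments scaled for model length and library size). The median group mean of the 64 models was 9.57 FPKM in Brood, 2.53 in Pollen and 5.05 in Honey, beside 7.75 FPKM in Brood, 7.36 in Pollen and 7.02 in Honey for the 5018. By largest group mean, 5 of the 64 were in the top 10% of the 5018. The highest was gene1363, with means of 233 FPKM in Brood, 26.6 in Pollen and 78.2 in Honey. The next, gene1496, had 221 FPKM in Brood, 9.38 in Pollen and 32.8 in Honey, and stood lower in Pollen relative to both other groups. Neither the gland's most abundant models nor the models added by the authors could become members, because the rule leaves them out.

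Counts behind the Pollen values were small. The median was 23 raw fragments over the Pollen libraries of the 64 models, the highest was 368, and 9 models had under 10 fragments in a Pollen library. Libraries of a group were close together in the members. The median size of the log2 difference between the 2 libraries was 0.34 in Brood, 0.29 in Pollen and 0.20 in Honey for the members, and 0.42, 0.33 and 0.31 in the same order of groups for the 5018. Since the rule favours models with closely placed libraries, this is a property of the choice.

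On the scaled counts, being lowest in Pollen was the least common of the 6 patterns in which 1 group stands apart. With the same conditions and the ratio of 1.4, both Brood libraries were the lowest for 1447 models, both Pollen libraries for 64 and both Honey libraries for 290. Both libraries were the highest for 909 models in Brood, 147 in Pollen and 353 in Honey. At a ratio of 2, the counts were 954 in Brood, 9 in Pollen and 96 in Honey for the lowest, and 361, 48 and 81 in the same order of groups for the highest. By group means alone, Brood was the lowest of the 3 groups for 2436 of the 5018 models (48.5%), Pollen for 1015 (20.2%) and Honey for 1567 (31.2%). With library totals as the scale, the rule gave 229 models lowest in Pollen. The other patterns were not counted on that scale, so the ranking is known for the scaled counts only.

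**Figure D3:**
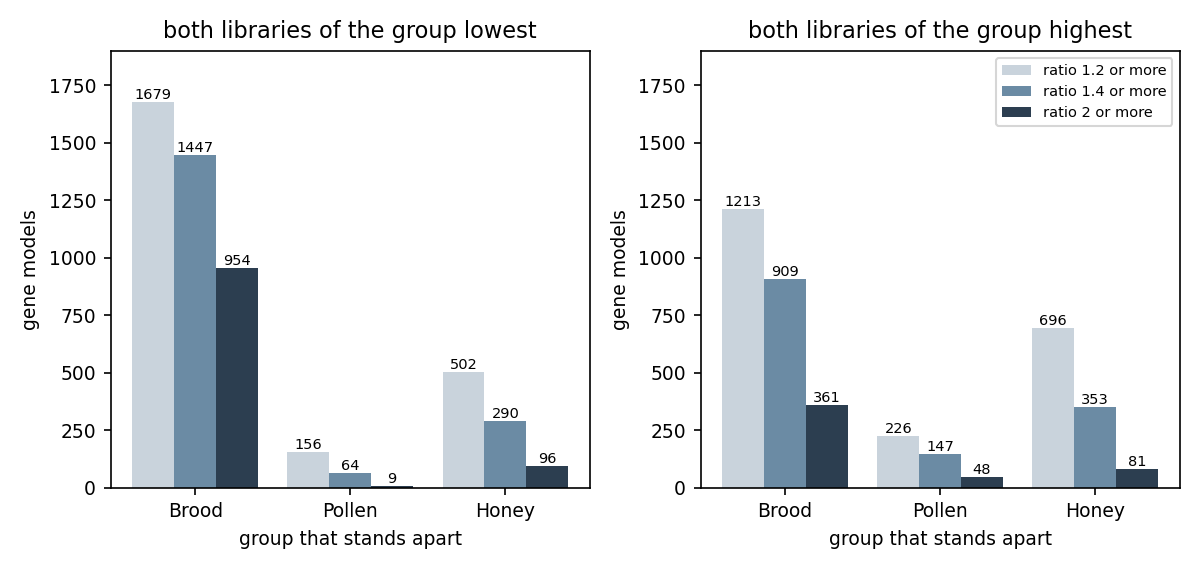
Number of gene models, among the 5018 that met the level and ID conditions, for which both libraries of 1 group were below (left) or above (right) all 4 others in scaled counts by the ratio given in the legend. Pollen has the shortest bars in each panel, and the 64 models described here are the middle Pollen bar on the left.

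The members were chosen for low Pollen values, so staying low under another scaling is largely set by the choice. The length of the list was not fixed. With TMM-scaled totals, with library totals and with the authors' own normalized count, both Pollen libraries stayed below all others for 64 of 64 models. The lowest ratio among them was 1.30, 1.03 and 1.35 in the same order of scalings. When each library's trend with model length was removed, both Pollen libraries stayed below all others for 62, with gene8012 and gene9010 as the exceptions. Applied anew, the rule gave 61 models with TMM (47 shared with the 64), 229 with library totals (35 shared), 76 with the authors' count (55 shared) and 82 without the length trend (40 shared). A set of 26 models met it under all of these, including gene3652, gene9944, gene4772, gene9686, gene377, gene7338, gene685, gene8420 and gene8663. For gene3652, with 0 fragments in both Pollen libraries, the ratio is met under any scaling, so its place in this set was fixed beforehand. The models gene7985 and gene5767, just inside the limit, met it under none of the other scalings. Without a library the rule has fewer values to meet, although some members were still lost. The number became 103 without Brood 1 (60 shared with the 64), 84 without Brood 2 (62 shared) and 138 without Pollen 1 (64 shared). It was 257 without Pollen 2 (64 shared), 108 without Honey 1 (64 shared) and 131 without Honey 2 (63 shared).

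The rule did not order Brood against Honey, and that comparison, which combines pollen feeding and a laying queen, was tested. If the sample labels hold, the Brood bees were also older than the Honey bees. Age then cannot be told apart from group in this comparison either. Of the 64 models, 27 were called higher in Brood and 0 lower by edgeR's quasi-likelihood test, over all 6943 models tested, at a Benjamini-Hochberg adjusted p under 0.05. Over all models tested, 57.2% were called, 28.4% higher and 28.8% lower in Brood, against 42.2% higher and 0% lower among the 64. At an unadjusted p under 0.05, 31 members were higher and 0 lower, where 31.1% of all models were higher and 31.3% lower, and DESeq2 called 16 members higher and 0 lower. The rule keeps Brood at least 1.4 times above Pollen, so both counts are limited by the choice of members. Of the 950 other models tested that met the level and ID conditions and had their lowest group mean in Pollen, 42.9% were higher and 1.68% lower, close to the members. The median log2 change was 0.68 for the 64, 0.73 for those 950 and 0.05 for all models tested. The level condition enters too. It was met in Brood but not in Honey by 14 members, 9 of them called higher, and such members had to be lower in Honey. Among the 47 with a mean of 30 or more in both groups, 18 (38.3%) were called higher, against 31.0% of the 3157 tested models with such means. Those 3157 were not limited to models lowest in Pollen, and the difference was not tested.

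The share of members called higher was not always above that of the models of the 5018 that were tested, of which 33.2% were higher and 32.2% lower with TMM. With DESeq2 it was 25%, against 27.8% of those models. Without Honey 1 it was 21.9% (14 models), against 25.2% of the 5018, and without Honey 2 it was 20.3% (13 models), against 25.2%. Without Brood 2 it was 28.1% (18 models), against 30.7%. With age in days as a covariate it was 12.5% (8 models), against 16.1%. The slope with age in that fit comes only from differences between libraries of the same group, so the fit does not separate age from group. With library totals as the scale, the median of all models shifted by -1.35 on the log2 scale, and 4 members were called higher and 21 lower, where 4.39% of all models were higher and 53.4% lower.

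The 3 members with the largest called log2 changes were gene3652, gene9944 and gene8663. The model gene3652 had 162 fragments in Brood and 4 in Honey in all, a scaled ratio of 87.7 (95% exact interval 33.6 to 326, for counting error only). Its fitted log2 change of 6.59 (adjusted p = 4.5e-05, edgeR) depends on the prior count. The model gene9944 was higher by a log2 change of 3.02 (SE 0.34; adjusted p = 4.1e-05, edgeR), at 172 ± 7.66 scaled fragments in Brood and 25.8 ± 9.87 in Honey (SD, n = 2 each). The model gene8663, on linkage group 11 at 2805238 to 2806650, had 89.6 and 73.4 scaled fragments in Brood, 4.20 and 2.99 in Pollen, and 6.93 and 21.8 in Honey. It was higher in Brood than in Honey by a log2 change of 2.84 (SE 0.47; adjusted p = 0.000373, edgeR), although its call was lost with age as a covariate (log2 change 2.21, adjusted p = 0.0942). For all 3, both Brood libraries lay above both Honey libraries, and the direction held under every scaling, library totals included. All 3 met the level of 30 in Brood but not in Honey, with Honey means of 1.405, 25.8 and 14.4 scaled fragments in the same order, so their difference is tied to how they entered the list.

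A further 5 models had log2 changes near or above 2, and were picked out after their values were seen, apart from gene7338. The model gene1496, on linkage group 1 at 26266066 to 26269608, had 1065 and 808 scaled fragments in Brood, 64.0 and 35.9 in Pollen, and 126 and 209 in Honey. Its log2 change of Brood minus Honey was 2.74 (SE 0.38; adjusted p = 0.000122, edgeR), and it kept its direction and call under all 15 alternatives, as did gene3652 and gene9944. The others were gene1877 at 2.16, gene11367 at 2.11, gene5500 at 2.03 and gene7338 at 1.98. These 4 were called higher with TMM but not with library totals, where their log2 changes were 0.80, 0.74, 0.65 and 0.62 in the same order. The low members gene1877 and gene11367, with 29 and 17 and with 22 and 22 raw fragments in Brood 1 and 2, had Honey means of 8.51 and 7.93 scaled fragments and met the level of 30 in Brood alone. Both lost the call without the length trend (log2 changes of 0.94 and 0.67; adjusted p = 0.121 and 0.285, edgeR) and with age (2.79 and 3.01; adjusted p = 0.0681 and 0.0688, edgeR). The model gene1877 also lost it without Brood 1 (1.64; adjusted p = 0.0573, edgeR).

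Of the 7 members with a largest group mean of 500 or more, 4 were called higher in Brood with TMM. These were gene1496, gene3698, gene5438 and gene8420. Among all tested models that met the level and ID conditions, 33.2% were called higher. The share among other models with a largest group mean of 500 or more was not counted. Whether abundant members were called more often than such models was therefore not tested. The model gene8420 was called with a log2 change of 0.80 (SE 0.30; adjusted p = 0.0355, edgeR), but 11 of 15 alternatives lost the call and 1 more, library totals, turned its direction, at -0.56. Among those 11 the log2 change was 1.33 with age, 0.014 without the length trend and 0.70 to 0.88 in the others. For gene9686 the log2 change was 0.49 (SE 0.31; adjusted p = 0.191, edgeR) with TMM and -0.87 with library totals. For gene685 it was -0.01 (SE 0.38; adjusted p = 0.988, edgeR). For gene1363 it was 1.59 with an SE of 0.66 (adjusted p = 0.0562, edgeR), and 5 alternatives carried it past the threshold. An adjusted p above the threshold does not show that Brood and Honey were level in these models.

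**Figure D4:**
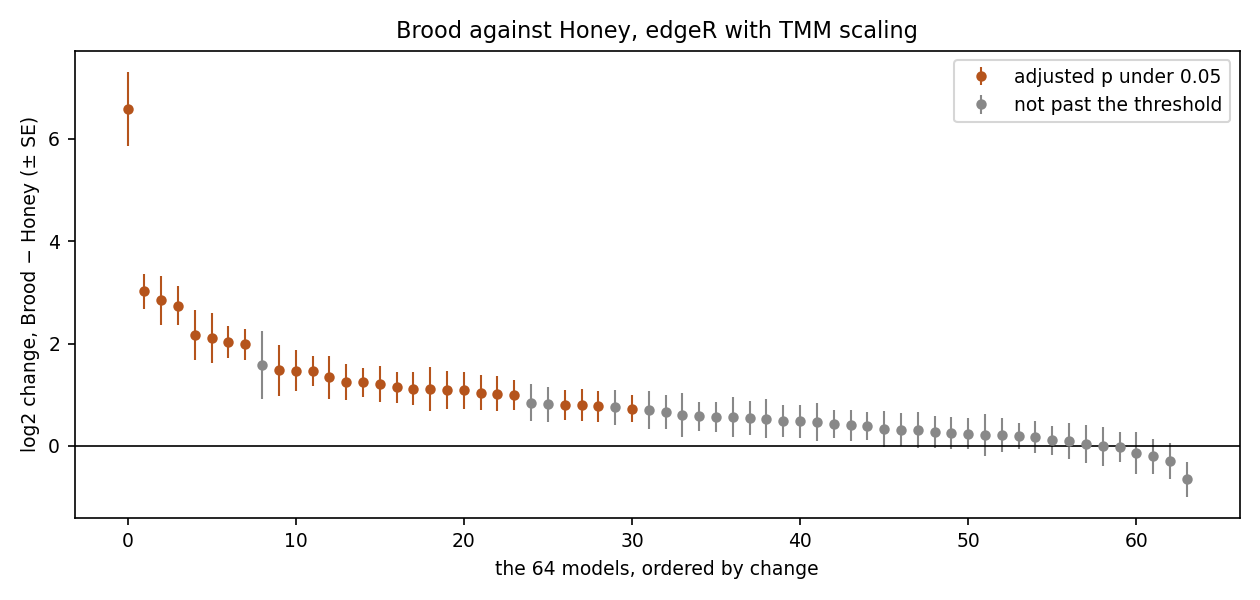
Log2 change of Brood minus Honey in the 64 models, ordered by size, with bars of ± SE from edgeR with TMM scaling (2 libraries per group). The 27 models past the threshold are all above 0, from 0.73 to 6.59, and the 37 others run from -0.65 to 1.59; with library totals as the scale, 52 of the 64 are below 0.

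Both Brood libraries lay above both Honey libraries in 36 of the 64 models (56.25%). In 4 (6.25%) both Honey libraries lay above both Brood libraries, and in 24 they overlapped. Among all models that met the level and ID conditions, the shares were 37.7% with Brood above and 45.7% with Honey above. The rule leaves out models with Brood lowest, so the small number with Honey on top is set in part by the choice. The 4 models with Honey on top, named after their values were seen, were gene9010, gene141, gene12540 and gene4723. That placing rests on the scaled counts. In the edgeR fit with TMM, the log2 change was -0.29 for gene141, -0.016 for gene12540 and 0.11 for gene4723, and none was called. By scaled group means 14 members had Brood below Honey, and with TMM 6 had a negative log2 change. The model gene9010, on linkage group 11 at 11559008 to 11561781, had 39.0 and 69.4 scaled fragments in Brood, 22.0 and 26.9 in Pollen, and 90.6 and 113 in Honey. Its log2 change of Brood minus Honey was -0.65 (SE 0.34; adjusted p = 0.112, edgeR). It passed the threshold on the lower side without Brood 2 (-1.12), with library totals (-1.98) and without the length trend (-1.55).

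Model length moved with both the choice and the comparison. The 64 models had a median length of 1727 bases (range 492 to 4810), against 2123.5 for the 5018, and a median span on the genome of 2844.5 bases, against 4508. Of the 5 equal classes of length among the 5018, the members numbered 14 in the shortest, then 18, 18 and 12, and 2 in the longest, which starts at 4096 bases. The other patterns had more extreme lengths, with medians of 3979 bases where Brood was lowest, 1033 where Brood was highest, 3981 where Honey was highest and 1033 where Honey was lowest. Members were thus neither as short nor as long, by the median, as the models of those lists, and 2548 bases was the median where Pollen was highest.

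Across models, which are not independent replicates and share the same 6 libraries, Spearman's correlation of the log2 change of Brood minus Honey with length was -0.38 for the 64 and -0.67 for 5014 of the 5018. By class of length, the members' median log2 change was 1.401, 0.75, 0.56, 0.53 and -0.05 from the shortest to the longest class. Over the 5018 it was 1.56, 0.85, 0.09, -0.82 and -1.63 in the same order. The rule leaves out models with Brood lowest, and the 1447 of them at a ratio of 1.4 had a median length of 3979 bases. Brood could still lie below Honey in a member, as in gene9010. The longest class rests on 2 members. With the trend removed, 25 members were called higher and 2 lower, where 20% of all models were higher and 17.8% lower. Of those 25, 15 were among the 27 called without this step. The 2 called lower were gene9010 and gene8012, the 2 models in which the Pollen libraries no longer both lay below all others without the trend. The part of length in the choice of members was not tested.

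**Figure D5:**
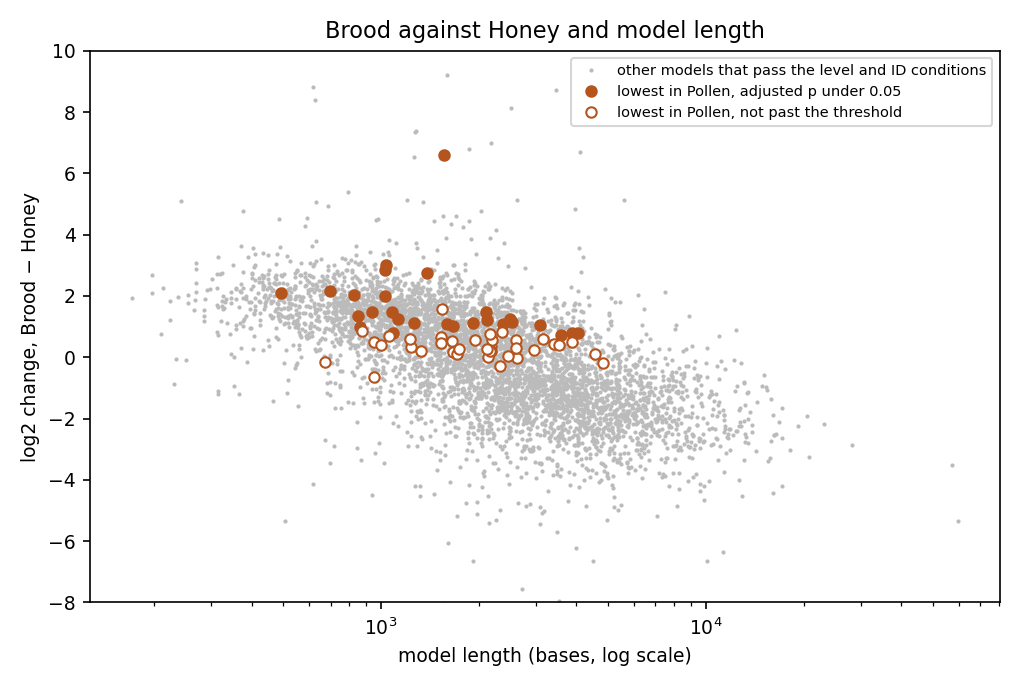
Log2 change of Brood minus Honey (edgeR, TMM scaling) against model length on a log axis, for the 64 models (orange) and the other models that met the level and ID conditions (grey; 8 lie beyond the plotted range). The grey points fall from left to right, and the orange points start at Brood above Honey on the left and lie nearer to 0 on the right; with library totals as the scale, 52 of the 64 orange points would be below 0.

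The members were spread over the genome. Linkage group 1 held 12 of the 64 (18.8%, against 12.7% of the 5018), no other held more than 5, linkage group 3 held 0 although 286 of the 5018 lie there, and 4 were on unplaced scaffolds. The minus strand held 37 (57.8%, against 50.5% of the 5018). Of the 64, 4 had a span equal to their length, as in models without introns, namely gene1416, gene5734, gene11196 and gene7239. Among the 5018 the share of such models was 2.37%, and the difference was not tested. Another listed model overlapped 11 of the 64 (17.2%, against 23.3%), on the same strand for 3 of them, gene4772, gene11196 and gene7239.

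No 2 members were next to each other. Within 100 kb lay 5 pairs, and how many such pairs other sets of models would hold was not tested. The closest were gene10431, at 2190941 to 2233333, and gene10434, at 2254571 to 2259162, on the minus strand of linkage group 14, with 21237 bases and 1 model between them. The model gene10431 had 197 and 188 scaled fragments in Brood, 33.6 and 84.8 in Pollen, and 127 and 133 in Honey. The model gene10434 had 24.6 and 33.4 in Brood, 7.35 and 12.0 in Pollen, and 23.8 and 36.4 in Honey. In both, Pollen 1 was the lowest library, and the raw Pollen counts of gene10434 were 7 and 12. The next pairs were gene9944 and gene9949 on linkage group 13 (25080 bases apart), gene377 and gene389 on linkage group 1 (42107 bases), gene5438 and gene5453 on linkage group 6 (79171 bases) and gene677 and gene685 on linkage group 1 (97434 bases). Of the 125 nearest models that met the level and ID conditions without being members, 26 had their lowest group mean in Pollen (20.8%); among the 5018, members included, 20.2% did, and the difference was not tested.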

How the data were processed

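Per the file headers, the authors deposited for each library and gene model a raw fragment count, a normalized count (a signal scaled by the authors) and an FPKM value. The aligner, counter, annotation and build are not given in the sources used here, and coordinates are those of the files. Per the labels' protocols, libraries were made with the NEBNext Ultra kit. Of 384 values of the members, the authors' normalized count equalled the raw count times 1 factor per library within 0.02 fragments for 269, and fell short by at most 1.00 fragment otherwise.

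Size factors were medians of ratios over 4633 models with 10 or more fragments in all 6 libraries. The rule also excluded 1 model by name. The members and lists were chosen with earlier results of these data known. Brood vs Honey was tested on raw counts with edgeR 4.0.16 in R 4.3.3 (TMM, filterByExpr with a minimum count of 10, quasi-likelihood test, two-sided). All 6 libraries shared 1 fit with 3 residual degrees of freedom. The SE is the log2 change over the square root of F. An exact permutation test of 2 against 2 libraries cannot go below 0.333. The alternatives used DESeq2 1.42.0, limma 3.58.1 on log2(FPKM + 1) and log2(FPKM + 0.1), other scalings, no filter, the replicate number, age, length and single libraries left out. On simulated Brood vs Honey data with 6698 models tested, 2.99% of 1.5-fold, 25.4% of 2-fold and 90.9% of 4-fold changes were recovered, with 4 false calls. Changes were planted in few of the models and in none of the least abundant. In the measured data 57.2% of models were called, so these rates do not give the recovery of the reported test. Named were the members with the 6 largest ratios, the 4 highest mean counts and the 3 largest called changes in each direction, with 3 models on each side of the limit; adjacent members would also have been named. Colonies were separate per the labels. Replicates were not duplicates: their counts varied 27.3 to 117 times as much as sampling alone gives. Intervals and floors cover counting error only.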

Additional observations from a re-analysis of the deposited data

How the results depend on the processing

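All alternatives were listed with earlier results of these data known. The number of members (64) became 229 with library totals, 156 at a ratio of 1.2, 9 at a ratio of 2, 120 at a largest group mean of 10 or more and 25 at 100 or more, and 84 to 257 with single libraries left out. The median length of members (1727 bases) became 1926 with TMM, 1354 with library totals, 2179.5 without the length trend and 1668 at a ratio of 2. The count of all models called in Brood vs Honey (3969) became 1815 with age and 2625 without the length trend, and 3031 to 4029 with single libraries left out. With library totals 305 were higher and 3707 lower. Members called higher (27) became 4 with library totals, 16 with DESeq2 and 8 with age, and 13 to 27 with single libraries left out. Members called lower (0) became 21 with library totals, 2 without the length trend and 0 to 1 with single libraries left out. With the replicate block the counts were 3901 models, 25 members higher and 0 lower. Deviations of same-numbered libraries correlated at -0.09, 0.04 and 0.15 between groups. Whether such libraries shared more than a number was not tested beyond these values. Age and block are the same fit, read with and without extrapolation over days; the other causes were not tested.

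Of the log2 changes of 20 models, 243 values kept direction and side of the threshold, 33 lost the threshold, 9 passed it and 15 turned. With library totals gene4772 was at -1.19, gene9686 at -0.87, gene377 at -1.03, gene8420 at -0.56, gene7985 at -0.79, gene5767 at -1.08 and gene3698 at -0.21. Without the length trend gene4772 was at -0.022, gene9686 at -0.45 and gene685 at 0.11. With age gene5767 was at -0.092. With single libraries left out, gene4772 ran from -0.0058 (without Honey 2) to 0.42, and gene685 ran from -0.53 to 0.38, turning at 0.38 without Honey 2, 0.37 without Brood 1 and 0.0054 without Pollen 2. Depth limits the members most in Pollen, where 9 had under 10 fragments in a library.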

Other observations

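Outside the models that the rule could choose, 2 of 56 numbered models with 10000 or more fragments in a library had the same low Pollen values. The model gene8463, on linkage group 10 at 12829933 to 12831074, had 10198 and 7499 scaled fragments in Brood, 1982 and 3084 in Pollen, and 13713 and 13331 in Honey, a ratio of 2.43. The model gene4810, on linkage group 6 at 189128 to 190923, had 6405 and 9022 in Brood, 2008 and 4566 in Pollen, and 31791 and 25286 in Honey, so that Honey was far above both. Of 183 models added by the authors with a largest group mean of 30 or more, 2 had the ratio. One of them, on linkage group 6 at 4690495 to 4697879, had 42 and 51 raw fragments in Brood, 2 and 0 in Pollen, and 6 and 6 in Honey.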
